A study of Mus musculus with 6 samples.

Results

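The mRNA expression of 7 GABA-A receptor subunits (Gabra2, Gabra3, Gabra4, Gabra5, Gabrb1, Gabrb2 and Gabrd) was described in the cerebral cortex of young and old adult mice. The members were chosen by gene symbol and are 7 of the 55421 genes in the deposited tables. Total RNA was sequenced from the cortex of wild-type male C57BL/6J mice, with 3 mice aged 6 months (numbers 10, 11 and 17) and 3 aged 24 months (numbers 2, 4 and 5). All 6 mice received the same standard diet and were put under isoflurane anaesthesia before the tissue was taken, and isoflurane is a general anaesthetic that itself acts on GABA-A receptors. The C57BL/6J strain also carries a spontaneous intronic deletion in Gabra2 that lowers the expression of this subunit, and both ages share it. Each library was made from the whole cortex of 1 mouse, so fewer cells of a type and less RNA per cell cannot be told apart.

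GABA-A receptors are pentameric chloride channels that open when they bind GABA, the main inhibitory neurotransmitter of the cortex. Most of them combine α and β subunits with a γ subunit and sit at synapses, where they carry fast inhibition, whereas receptors in which the δ subunit takes the place of γ lie outside synapses and carry a slow, tonic inhibition. The α subunit sets much of the pharmacology and the location of the receptor: α2 and α3 are mostly synaptic, α4 pairs with δ in the forebrain, and α5 is found largely outside synapses in hippocampus and deep cortical layers. The β subunits form the GABA binding site together with α and bind the scaffold and trafficking proteins of the receptor.

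The coding stretch around the residue that decides whether an α subunit can bind classical benzodiazepines is shown for the 4 α members, since it is the best-known difference among them. Each stretch has 39 bases, reads 5′ to 3′ on the coding strand of the GENCODE vM21 transcript, and has the codon of that residue in capitals.
Gabra2: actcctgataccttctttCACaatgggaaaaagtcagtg
Gabra3: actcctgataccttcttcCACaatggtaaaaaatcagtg
Gabra5: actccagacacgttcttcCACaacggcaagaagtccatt
Gabra4: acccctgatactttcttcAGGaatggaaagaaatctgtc
The codon is CAC, for histidine, in Gabra2 (codon 129 from the start codon), Gabra3 (codon 195) and Gabra5 (codon 136), and AGG, for arginine, in Gabra4 (codon 161). Over the whole coding sequence, identity between pairs of the 4 α members was 66.8% (Gabra2 and Gabra4) to 73.4% (Gabra2 and Gabra3), and Gabrb1 and Gabrb2 were 72.7% identical. Among the 56 pairs of a member with another subunit expressed in cortex or with another member, the longest identical stretch between transcripts was 34 bases in the same orientation, and 65 bases in the opposite one. Both are shorter than the reads of 75 bases before trimming.

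The libraries held 29495379 to 36494240 counts, and each member had 1792 to 10512 counts in each library, so that all 7 passed the minimum of 10 counts over the 6 libraries. Counting error was at most 2.36% of a value, below the variation between mice of 10.9% to 18.5% (biological coefficient of variation of edgeR). The tissue label was checked against marker lists: summed markers of excitatory neurons reached 1968 to 2517 TPM and those of inhibitory neurons 1482 to 1654 TPM, against 125 to 185 TPM for striatal neurons, 44.1 to 64.4 TPM for thalamic neurons and 6.55 to 13.5 TPM for cerebellar granule and Purkinje cells. Markers of dentate granule cells summed to 7.92 to 9.63 TPM. Those of the choroid plexus differed more between mice, at 35.9 to 114 TPM, with Ttr alone at 31.9 to 110 TPM. The ages overlapped in Ttr. No marker of these lists was at 0 in all libraries.

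The levels of the members were first ordered within each age in TPM, which corrects for exonic length. At 6 months, the α subunits Gabra3 (219.3 ± 24.7 TPM, SD, n = 3), Gabra5 (199.9 ± 17.1) and Gabra4 (176.5 ± 18.0) were the most abundant, and neighbours in this order overlapped. They were followed by Gabrb2 (103.0 ± 12.6 TPM), Gabrd (76.3 ± 3.16), Gabra2 (51.7 ± 5.54) and Gabrb1 (38.0 ± 1.06), each with a range apart from that of the next. At 24 months, Gabra3, Gabra5 and Gabra4 again led with overlapping ranges, at 178.1 ± 16.6, 150.8 ± 20.6 and 142.8 ± 18.1 TPM. The order changed in the middle, where Gabrd (75.9 ± 8.56 TPM) had a higher mean than Gabrb2 (71.3 ± 22.0 TPM), although their ranges overlapped, as did those of Gabrb2 and Gabra2 (46.3 ± 7.03 TPM). Gabrb1 (32.9 ± 1.66 TPM) had the lowest level of the members in every mouse.

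**Figure D1:**
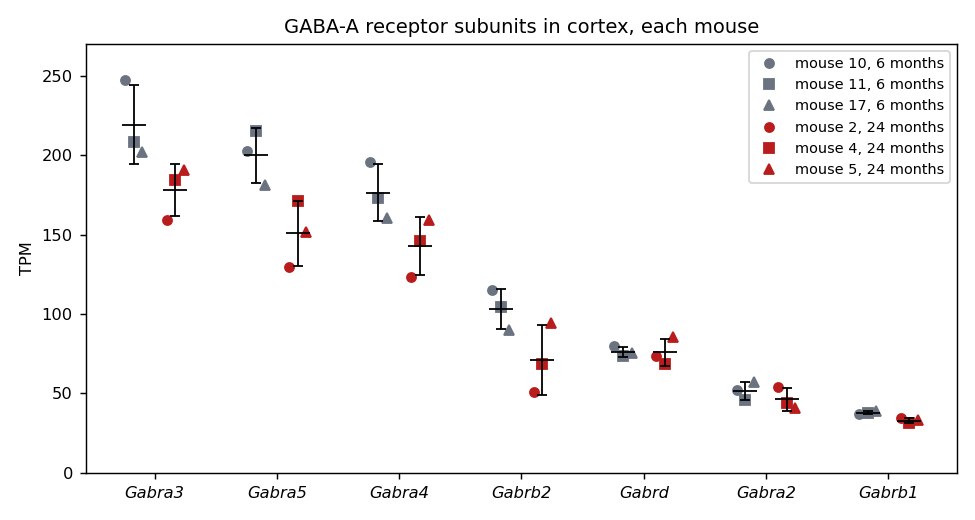
Level of each of the 7 subunits in TPM (vertical axis) in each mouse. Grey symbols are the 6-month-old mice 10, 11 and 17 and red symbols the 24-month-old mice 2, 4 and 5, with black bars for the mean and SD of 3 mice. The 24-month values of Gabra3, Gabra4, Gabra5 and Gabrb1 lie below all 6-month values, for Gabra4 only just. Those of Gabrb2, Gabrd and Gabra2 overlap with them.

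To compare the ages, counts were scaled with the TMM method of edgeR and given as CPM, and log2 fold changes are for 24 against 6 months. The mean of all 7 members was lower at 24 months under this scaling, with log2 fold changes from -0.64 to -0.12, and Gabrd turned to 0.070 with library totals. At the 1% FDR used in the study, 0 of the 7 members passed the quasi-likelihood test of edgeR, and 0 of the 32905 genes tested did (0%). At an unadjusted p under 0.05, 10097 genes passed in either direction and 5 members were lower, as were 13.1% of all genes and 38.5% of the genes with a mean of at least 10 CPM. The likelihood ratio test and exact test of edgeR and the Wald test of DESeq2 called 1703, 1122 and 227 genes at 1% FDR, again with 0 members among them. At the looser level of 10% FDR, 5 members were lower (Gabra3, Gabra4, Gabra5, Gabrb1 and Gabrb2), where 8.33% of all genes tested and 25.4% of the 10028 genes with a mean of at least 10 CPM were called lower. The same 5 members had CPM ranges that did not overlap between the ages, which held for 16.3% of all genes and 45.7% of the genes at 10 CPM or more. In TPM, the ranges of Gabra3, Gabra4, Gabra5 and Gabrb1 were apart and lower at 24 months. This held for 24.4% of the 9675 genes with a mean of at least 10 TPM. The labels name no batch.

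The size of these differences depends on the scaling. The libraries themselves differed by age. Genes with a count numbered 33974, 35651 and 35172 in the young mice 10, 11 and 17, and 43561, 42717 and 40208 in the old mice 2, 4 and 5. The TMM factors were 0.92 to 0.95 at 6 months and 1.04 to 1.10 at 24 months. The part of this library difference in the differences of the members was not tested. The median log2 fold change of the members was -0.41, beside 0.15 for all genes tested and -0.20 for the genes at 10 CPM or more. With library totals as the only scaling, the median of genes at 10 CPM or more moved to -0.01 and that of the members to -0.22. Under that scaling 0 members passed 10% FDR (0.966% of all genes were called lower) and 2 passed an unadjusted p under 0.05 (2.85%). A change of scaling moves all genes by a similar amount. The place of the members below the genes at 10 CPM or more was therefore bound to stay, and it is no second result. The calls at 10% FDR were lost with library totals. Calls at 10% FDR also depended on single mice: without mouse 10, 11, 2 or 4, 0 members passed, without mouse 17, 3 passed, and without mouse 5, 5 passed. Over all genes, the number past 10% FDR in either direction was 0 without mouse 10, 1 without mouse 11, 176 without mouse 2, 0 without mouse 4, 2476 without mouse 17 and 7998 without mouse 5, so that the counts of members went with the counts of all genes.

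**Figure D2:**
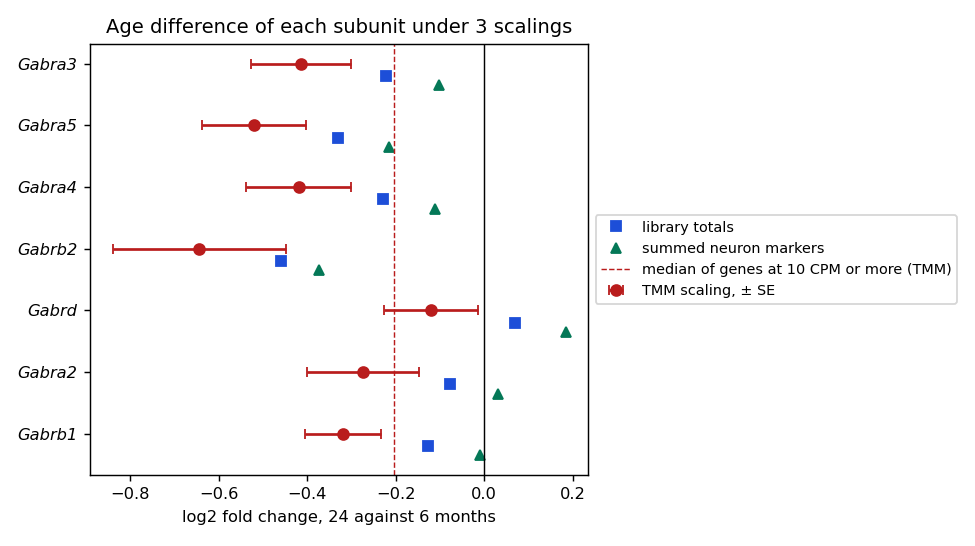
Log2 fold change at 24 against 6 months (horizontal axis) of each member. Red points with bars are the edgeR estimates with TMM scaling and their standard error, blue squares are estimates with library totals and green triangles are estimates after scaling to the summed counts of 8 neuron markers; the dashed line is the median of genes at 10 CPM or more under TMM, -0.20. All points move to the right from TMM to library totals to neuron markers, and Gabrd is on the right of 0 in both of the latter.

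Among the α subunits, Gabra5 had the lowest unadjusted p of the members. Its level was 202.7, 215.4 and 181.5 TPM in the 6-month-old mice 10, 11 and 17, and 129.7, 170.9 and 151.7 TPM in the 24-month-old mice 2, 4 and 5. Every old mouse was below every young mouse. In CPM the mean was 168.9 ± 14.3 at 6 months and 117.8 ± 16.2 at 24 months (SD, n = 3), which gave a log2 fold change of -0.52 (SE 0.12, edgeR adjusted p = 0.0536). Only 3.74% of the genes at 10 CPM or more had a log2 fold change as low or lower.

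Gabra3 encodes the α3 subunit, found at synapses of cortical and brainstem neurons. It reached 247.6, 208.2 and 202.0 TPM at 6 months and 159.3, 184.4 and 190.7 TPM at 24 months. The ranges were apart, with mouse 10 as the highest and mouse 2 as the lowest. Its mean was 244.7 ± 29.04 against 183.6 ± 17.2 CPM, a log2 fold change of -0.41 (SE 0.11, edgeR adjusted p = 0.0624).

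Gabra4, whose product pairs with δ in extrasynaptic receptors, followed the same order of mice. Its values were 195.9, 173.3 and 160.2 TPM at 6 months and 123.3, 145.9 and 159.2 TPM at 24 months, so that the lowest young and the highest old mouse were nearly equal. In CPM the mean was 305.2 ± 32.8 at 6 months and 228.3 ± 29.1 at 24 months, for a log2 fold change of -0.42 (SE 0.12, edgeR adjusted p = 0.0654). The log2 ratio of Gabra3 to Gabra4 in TPM was steady across all 6 mice, between 0.26 and 0.37, and the ages overlapped in it.

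Gabra2, the α2 subunit, was the least abundant α member. It was measured at 51.9, 46.1 and 57.1 TPM at 6 months and at 54.2, 43.9 and 40.8 TPM at 24 months, and the old mouse 2 exceeded the young mice 10 and 11. The mean was 112.3 ± 12.3 against 92.9 ± 14.04 CPM, a log2 fold change of -0.27 that did not pass the test (SE 0.13, edgeR adjusted p = 0.175). The interval of 2 SE, from -0.53 to -0.02, leaves out 0 although the unadjusted p of edgeR was 0.0574, so it is no test of Gabra2. Unlike Gabra3 and Gabra4, Gabra2 was not lowest in mouse 2.

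Of the β subunits, Gabrb2 had the log2 fold change farthest from 0 of the members and the largest biological coefficient of variation (18.5%). It was at 115.1, 104.1 and 90.0 TPM at 6 months and at 50.8, 68.7 and 94.5 TPM at 24 months. The old mouse 5 thus lay above the young mouse 17 in TPM, although the ranges were apart in CPM. The mean was 186.3 ± 23.5 CPM at 6 months and 119.2 ± 36.8 CPM at 24 months, which gave a log2 fold change of -0.64 (SE 0.20, edgeR adjusted p = 0.0735), and only 1.13% of the genes at 10 CPM or more were as low or lower. Leaving out 1 mouse moved this value between -0.90 and -0.44.

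Gabrb1, which encodes β1, was lower in expression but varied least between mice. Its level was 37.4, 37.4 and 39.2 TPM in the young mice and 34.3, 31.1 and 33.4 TPM in the old mice. All 3 old mice were below all 3 young mice by a small margin. The CPM mean was 149.4 ± 4.11 against 119.8 ± 5.96, a log2 fold change of -0.32 (SE 0.09, edgeR adjusted p = 0.0617), and 25.2% of the genes at 10 CPM or more were as low or lower.

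Gabrd, which encodes the δ subunit of extrasynaptic receptors, had the smallest difference of the members. It was at 79.8, 73.7 and 75.4 TPM at 6 months and at 73.8, 68.6 and 85.3 TPM at 24 months, and the old mouse 5 had the highest value of all. The mean was 62.4 ± 2.98 against 57.3 ± 6.48 CPM, a log2 fold change of -0.12 (SE 0.11, edgeR adjusted p = 0.458) with an interval of 2 SE from -0.33 to 0.09. The estimate was 0.070 with library totals, so that no direction can be given for Gabrd.

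The summed level of the members was 930.2, 858.1 and 805.5 TPM at 6 months and 625.5, 713.5 and 755.6 TPM at 24 months, and the ages did not overlap. The members were then compared with each other within each library, where the scaling between libraries plays no part. As shares of the summed α subunit TPM, the 4 α members kept similar proportions: Gabra3 had 22.1% ± 0.97 at 6 months and 23.1% ± 1.19 at 24 months, Gabra5 20.2% ± 1.53 and 19.5% ± 1.72, Gabra4 17.8% ± 0.29 and 18.4% ± 0.48, and Gabra2 5.26% ± 0.96 and 6.14% ± 1.90. All 4 overlapped between the ages. Among the β subunits, Gabrb2 had 33.9% ± 8.61 of the TPM at 6 months and 26.1% ± 5.93 at 24 months, also with overlap. Among the γ and δ subunits, Gabrd had 36.5% ± 6.49 of the TPM at 6 months and 37.8% ± 3.45 at 24 months, again with overlap.

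Gabrd was the member whose share of all GABA-A subunit TPM did not overlap between the ages, unlike its share of the γ and δ subunits. The share of all subunits was 4.90%, 4.94% and 5.23% in the young mice and 6.84%, 5.35% and 6.12% in the old mice. The mean was 5.02% ± 0.18 against 6.11% ± 0.74. Higher shares were thus found in 3 of 3 old mice, while the Gabrd level itself overlapped. The summed TPM of all subunits, by which the share divides, was 1628, 1491 and 1442 in the young mice and 1079, 1281 and 1393 in the old mice. A share rises when this sum is lower and the Gabrd level is not, so it gives no rise of Gabrd itself. In a two-sided exact permutation test its p was 0.1, the smallest that 3 mice against 3 can give, and 0.7 after adjustment over the 7 members. Of the 21 ratios between pairs of members, 2 did not overlap between the ages, too few to read as a trait of any member, and their values are given as a description. The log2 ratio of Gabrb2 to Gabrd was 0.53, 0.50 and 0.25 at 6 months and -0.54, 0.0039 and 0.15 at 24 months. That of Gabrb1 to Gabrd was -1.09, -0.98 and -0.94 at 6 months and -1.10, -1.14 and -1.35 at 24 months, so that the ranges nearly touched.

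**Figure D3:**
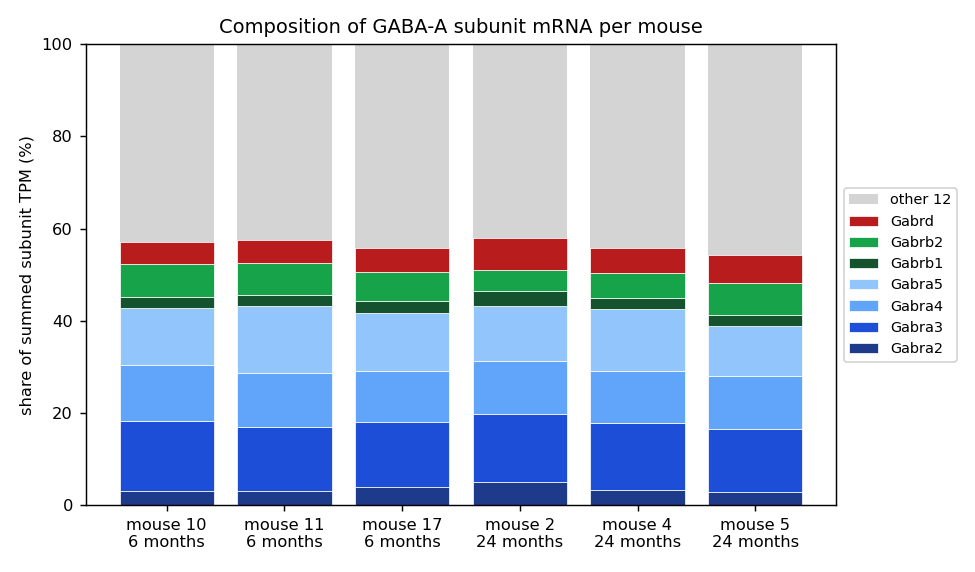
Share of each subunit in the summed TPM of all 19 GABA-A subunit genes (vertical axis, percent) in each mouse (horizontal axis), with the α members in blue, the β members in green, δ in red and the other 12 subunits together in grey. The red δ segment is 4.90% to 5.23% in the young and 5.35% to 6.84% in the old mice.

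Of the 12 other subunits, 5 had a mean level of at least 1 TPM. Of these, a pair of γ subunits of low expression is described here. Gabrg1 was at 43.0 ± 0.62 against 34.4 ± 4.17 CPM, a log2 fold change of -0.32 (SE 0.11, edgeR adjusted p = 0.0933). Gabrg3 did not pass, with a log2 fold change of -0.17 (SE 0.14).

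The subunit genes lie in clusters of the mouse genome (GRCm38), and the members were followed along them. On chromosome 5, Gabrg1 (log2 fold change -0.32), Gabra2 (chr5:70957597-71095849, minus strand, -0.27), Gabra4 (chr5:71569749-71658308, minus strand, -0.42) and Gabrb1 (chr5:71658113-72149037, plus strand, -0.32) are neighbours. Gabra4 and Gabrb1 are arranged head to head and share 46 exonic bases at their starts. On chromosome 11, Gabrb2 (chr11:42419757-42629028, plus strand, -0.64) follows Gabra6, which had 2 to 7 counts per library. On chromosome 7, Gabra5 (chr7:57407672-57510059, minus strand, -0.52) shares 148 exonic bases with the antisense gene Gm9962, which had 127 to 183 counts per library against 3286 to 6249 for Gabra5. The counting options name no strand setting, so reads of the antisense gene and of Gabra5 in those bases cannot be told apart. Gabra3 (chrX:72432681-72656848, minus strand) lies between Gabre and Gabrq, and Gabrd (chr4:155384980-155398112, minus strand) is far from any other subunit gene of its chromosome. On chromosome 5, the ranges of Gabra4 and Gabrb1 were apart between the ages, and those of Gabra2 overlapped.

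Promoter sequences were read for 6 of the 7 members (RefSeq, GRCm38.p6, 10 windows of 250 bases before to 50 after a transcript start), and those with the clearest promoter elements are shown up to the transcript start or the neighbouring exon. Each has 60 bases, reads 5′ to 3′ on the strand of the gene, and has the element in capitals.
Gabrb1: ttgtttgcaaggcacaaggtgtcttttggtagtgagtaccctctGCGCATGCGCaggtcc
Gabrb2: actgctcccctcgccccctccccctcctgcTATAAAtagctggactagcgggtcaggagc
Gabra4: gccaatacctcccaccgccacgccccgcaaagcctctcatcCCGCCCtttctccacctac
The Gabrb1 stretch (chr5:71699872-71699931, plus strand) lies before the transcript start at 71699932, which is inside the gene and downstream of its head-to-head start beside Gabra4. It has matches to the core of the NRF-1 site, CGCATGCGC, on both strands that overlap and together start at -16 from the transcript start, a match found in 1.75% of 32851 promoters. The Gabrb2 stretch (chr11:42420380-42420439, plus strand) has a TATA box, TATAAA, at -30, found in 13.6% of promoters. The Gabra4 stretch (chr5:71658364-71658423, minus strand) has a GC box, searched as GGGCGG and read here on the other strand, at -74, found in 35.7% of promoters. All motifs were searched on both strands. The cAMP response element TGACGTCA (1.79% of promoters) and the Egr sites GCGGGGGCG (2.91%) and GCGTGGGCG (0.612%) had no match in the windows of the 6 members. The element that occurred in the windows of 3 members was the GC box, in Gabra2, Gabra4 and Gabrb2, whose log2 fold changes were -0.27, -0.42 and -0.64. It had no match in the windows of Gabra3, Gabra5 and Gabrb1, at -0.41, -0.52 and -0.32. A link of the element with the age difference was not tested.

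The other genes of inhibitory synapses were described by list. Of 18 genes for scaffolds and receptor trafficking, 6 were lower and 0 higher at 10% FDR. At this level 8.33% of all genes tested and 25.4% of the genes at 10 CPM or more were lower, which also stands beside the lists that follow. The median of the list was -0.17 on the log2 scale (0.023 with library totals). Those 6 were Gphn, the gephyrin scaffold (-0.42, edgeR adjusted p = 0.0621), Slitrk3, an adhesion protein of inhibitory synapses (-0.44), Nsf, an ATPase of membrane fusion that also handles receptors (-0.42), Ubqln1, which stabilises receptor subunits (-0.36), Zdhhc3, which palmitoylates a γ subunit (-0.29), and Mdga1, a brake on neuroligin-2 (-0.56). Gphn was at 80.7, 76.3 and 71.1 TPM at 6 months and at 53.0, 62.9 and 68.4 TPM at 24 months. Nlgn2, the neuroligin of inhibitory synapses, had the highest log2 fold change of the list, 0.13 (SE 0.11), and did not pass.

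Of the 3 chloride transport genes, the neuronal KCC2 exporter Slc12a5, which keeps chloride low so that GABA inhibits, was lower at 10% FDR. It was at 206.2, 221.6 and 215.0 TPM at 6 months and at 160.3, 160.5 and 205.4 TPM at 24 months, for a log2 fold change of -0.40 (SE 0.11, edgeR adjusted p = 0.0626), and the ages were just apart. The chloride channel Clcn2 was at 0.12 (SE 0.12). Of 9 genes for GABA synthesis, packaging, uptake and breakdown, 0 passed 10% FDR in edgeR and 0 had an unadjusted p under 0.05, with Gad1, the main GABA-synthesising enzyme, at the lowest log2 fold change (-0.34, SE 0.17) and the transporter Slc6a11 at the highest (0.14, SE 0.21). Of 5 GABA-B receptor genes, 0 passed 10% FDR and 1 had an unadjusted p under 0.05, Kctd16 at -0.37 (SE 0.16), while Gabbr2 was at -0.00091 (SE 0.10). Of 5 glycine receptor genes, 1 was lower, the β subunit Glrb (-0.46, SE 0.16, edgeR adjusted p = 0.0913), while Glra2 (-0.93, SE 0.37) and Glra3 (0.25, SE 0.25) did not pass. With library totals, 0 genes of all these lists were lower at 10% FDR.

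**Figure D4:**
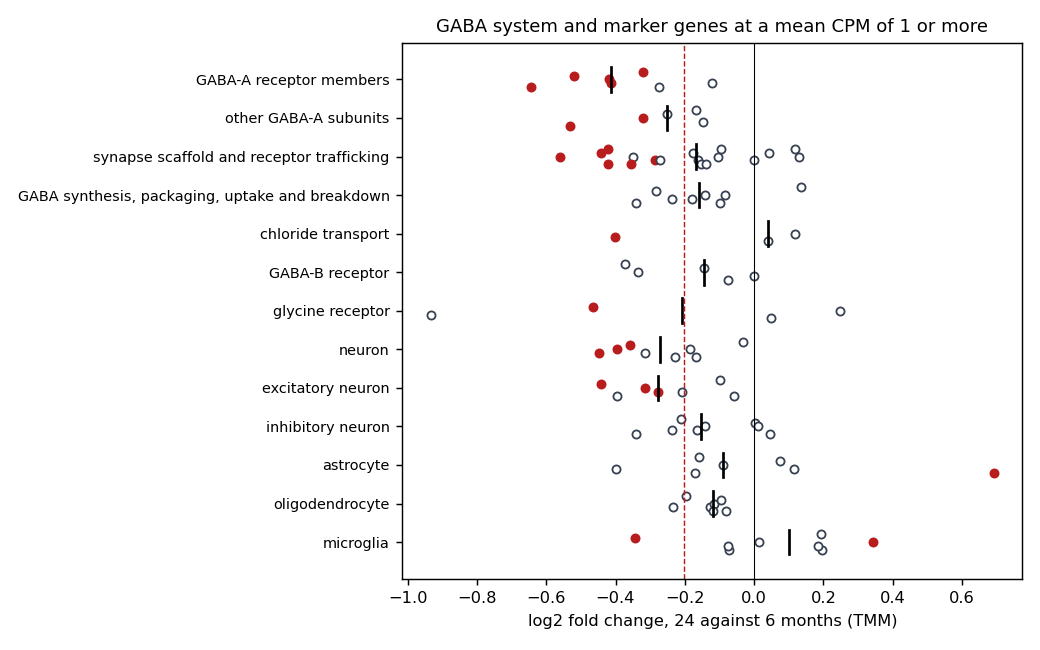
Log2 fold change at 24 against 6 months (horizontal axis, TMM) of the genes of each list with a mean of at least 1 CPM. Each point is a gene, filled red where its edgeR adjusted p was under 0.1, the short black line is the median of the list, and the dashed line is the median of genes at 10 CPM or more, -0.20. The members have the lowest median of the lists drawn, -0.41.

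Neuronal markers were read beside the members. All 8 neuron markers had log2 fold changes below 0, with a median of -0.27 (-0.083 with library totals). Of these, 3 passed 10% FDR (Syt1, Tubb3 and Stmn2). Here and for the lists below, 8.33% of all genes tested and 25.4% of the genes at 10 CPM or more were lower at that level. The summed level of the 8 neuron markers was 5202 to 6180 TPM at 6 months and 4250 to 5538 TPM at 24 months, with overlap. Of 7 markers of excitatory neurons, 3 were lower (among them Camk2a and Neurod6), with a median of -0.28 (-0.086 with library totals) and summed levels of 2252 to 2517 TPM at 6 months and 1968 to 2248 TPM at 24 months. Of 8 markers of inhibitory neurons, 0 passed in edgeR, with a median of -0.15 (0.037 with library totals) and summed levels of 1608 to 1630 against 1482 to 1654 TPM. When each library was scaled to its summed counts of the 8 neuron markers, the median of the members was -0.10, Gabrb2 was at -0.37 and Gabra5 at -0.22, Gabrb1 was at -0.01 and Gabrd was at 0.18. That sum rests mostly on Snap25 (115521 to 178661 counts per library) and Syt1 (46456 to 75246), not evenly on the 8 markers. Eno2, in the same sum, ran from 3129 to 13717 counts among the young mice. Among glia, the astrocyte marker Gfap was higher (0.69, SE 0.21, edgeR adjusted p = 0.0738), but it was the only one of 7 astrocyte markers to pass 10% FDR, 4 of the 7 had log2 fold changes below 0 and the median was -0.089. Of 8 microglia markers, 1 was higher (Tmem119, 0.34) and 1 lower (Csf1r, -0.34), with a median of 0.099. Of the 7 oligodendrocyte markers, 0 passed, with summed levels of 1431 to 2267 TPM at 6 months and 861 to 2600 TPM at 24 months. Of 5 thalamic markers, Slc17a6 was lower (-1.03, SE 0.33) and the other 4 did not pass, with a median of 0.076. The part of these markers in the differences of the members was not tested.

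The mean centred log2 CPM of the 7 members was 0.29, 0.16 and 0.14 in mice 10, 11 and 17 and -0.31, -0.20 and -0.09 in mice 2, 4 and 5, so that mouse 10 was highest and mouse 2 lowest in this mean. In CPM, Gabra3, Gabra4 and Gabrb2 had the same order of all 6 mice, with mouse 10 highest and mouse 2 lowest, and the other 4 members each had an order of their own. Across the 6 libraries, Gabra3 and Gabra4 followed this mean most closely (Pearson correlation 0.97 each) and Gabra2 least (0.45), a description that includes the age difference and the libraries' shared scaling. Among the 10028 genes at 10 CPM or more, the genes closest to the mean of the members were Kif3c, a kinesin motor (0.999), Nrd1, Ctsd, Rps6kc1 and Ptpn2 (0.997 to 0.998). The closest to each member was Arl2 for Gabra2, Cyria for Gabra3, Pja2 for Gabra4, Atp5a1 for Gabra5, Otub2 for Gabrb1, Rb1cc1 for Gabrb2 and Sppl2b for Gabrd, with correlations from 0.987 for Sppl2b to 0.999 for Rb1cc1, picked as the highest among many genes over 6 points.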

How the data were processed

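RNA-seq of the cortex of 6 mice was used. Per the labels and the study's methods, reads were trimmed with Trim Galore 0.6.4, mapped to GRCm38 with STAR 2.7.3a and counted on exons with featureCounts (Subread 2.0.0), with multi-mapping reads split. The deposited counts were 100% whole numbers, although split reads give fractions. Whether fractions were rounded is not stated, so how multi-mapping reads entered these counts is not known. The counts were tested as they are, and the deposited TPM, computed by the authors, were used for levels and shares. The test was the quasi-likelihood test of edgeR 4.0.16 (R 4.3.3, TMM, at least 10 counts over 6 libraries, no covariate), with Benjamini-Hochberg adjustment over 32905 genes. Alternatives were other tests (edgeR, DESeq2 1.42.0), scalings, filters, limma 3.58.1 on log2(TPM + 1) or log2(TPM + 0.1), and each mouse left out. The scaling to neuron markers was chosen after seeing the data. The script was tested on simulated data.

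The members and lists were chosen with earlier results of these data known. Named were all members, other subunits of at least 1 TPM, from each list the largest rise, the largest fall and genes past 10% FDR, and the genes most alike; a few genes under this rule are left out of the text. Positions are from GENCODE vM21, in which the 7 identifiers have the same version. p-values measure the spread between mice. Protein sequences were not used here, and no promoter of Gabrd was used.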

Additional observations from a re-analysis of the deposited data

How the results depend on the processing

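All members except Gabra2 and Gabrd kept a log2 fold change below 0 under every alternative run. Instead of 5 members past 10% FDR, 0 passed with library totals, with TMM over genes at 10 CPM or more, with a minimum mean of 1 CPM and with limma at both pseudocounts, and 1 passed with filterByExpr; with each mouse left out the number ranged from 0 to 5. The genes lower at 10% FDR over all genes tested also became fewer: 6 of 15793 with the minimum mean of 1 CPM, 85 and 449 of 32905 with limma at pseudocounts of 1 and 0.1, and 430 of 20490 with filterByExpr. The number of members past 1% FDR was 0 under every alternative. The median log2 fold change was -0.22 with library totals, -0.20 with TMM over genes at 10 CPM or more and -0.10 with scaling to neuron markers, and from -0.47 to -0.33 with a mouse left out. Gabrd turned to 0.070 with library totals, 0.089 with TMM over genes at 10 CPM or more, 0.033 with a minimum mean of 1 CPM and 0.18 with neuron markers, and Gabra2 to 0.032 with neuron markers; each of these shifts the log2 fold changes of all genes by a similar amount by construction. Of all genes tested, 2741 were lower and 3299 higher at 10% FDR, against 318 and 4121 with library totals, 280 and 4520 with TMM over genes at 10 CPM or more, 2196 and 5302 with the likelihood ratio test and 1708 and 1340 with DESeq2.

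The difference in the share of Gabra4 was -0.17 percentage points when taken of all subunits, against 0.65 of the α subunits, and that of Gabra3 was -0.11 against 0.96. With a mouse left out, the differences in share of α subunits ranged from -0.20 to 1.58 points for Gabra2, 0.29 to 1.43 for Gabra3, 0.42 to 0.90 for Gabra4 and -1.48 to 0.23 for Gabra5. No paired analysis was possible because the ages share no mouse number. With at least 1792 counts of each member per library, counting error was small beside the spread between 3 mice per age.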

Other observations

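Several other subunits were near the floor of detection. The ε, π, θ, ρ1, ρ2 and ρ3 genes (Gabre, Gabrp, Gabrq, Gabrr1, Gabrr2 and Gabrr3) and the cerebellar subunit Gabra6 had means under 1 TPM. Gabrp had 1 count in each of the 3 young mice and 9, 7 and 2 counts in the old mice 2, 4 and 5, with an edgeR adjusted p of 0.0838, and Gabrr1 had 2, 2 and 4 counts against 12, 5 and 6. No fold is given, as the young mice were at or near the floor of 3 counts per library. Gabrq, in contrast, had 31, 38 and 35 counts in the young and 27, 22 and 20 in the old mice, and did not pass (edgeR adjusted p = 0.122).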
